A study of Mus musculus with 2 samples.

Results

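The genes described here are 7 transcription regulators of the bone-forming lineage, the receptor for parathyroid hormone (PTH) and the osteocyte product sclerostin: Msx1, Msx2, Dlx5, Dlx3, Cbfb, Sp7, Pth1r, Mef2c and Sost. They were taken as all probe sets whose only gene symbol in the probe annotation is one of these names, which gave 17 probe sets for 9 genes, out of 34945 such probe sets for 18193 genes. Signals came from Affymetrix mouse arrays of 2 osteosarcoma cell lines. Dunn is the parental mouse line, labelled non-metastatic, and LM8 is its subline, labelled highly metastatic. Both were grown in the same medium with 10% serum, with no treatment named, and each line gave 1 array of total RNA. A difference between them therefore has no replicate check, no significance test was possible, and each fold holds for these 2 arrays. Differences are log2 of LM8 over Dunn, so a negative value is lower in LM8.

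Osteoblasts arise from mesenchymal progenitors through a sequence of transcription factors. The homeobox proteins Msx1 and Msx2 act in early skeletal progenitors, Dlx5 and Dlx3 take part in commitment and matrix gene activation, and Cbfb is the partner that lets RUNX proteins bind DNA firmly. Sp7, also called osterix, is a zinc finger factor without which no osteoblasts form. Mature osteoblasts and osteocytes carry Pth1r, a G protein-coupled receptor for PTH and PTH-related protein that signals mainly through cyclic AMP and protein kinase A. Osteocytes, the cells embedded in bone, secrete sclerostin, the product of Sost, which blocks the Wnt co-receptors Lrp5 and Lrp6. Mef2c drives Sost through a distant enhancer, and PTH lowers Sost in bone.

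Among the 10 probe sets above the floors of both arrays, defined below, Pth1r stood apart in size, at 2.26-fold lower in LM8. The osteoblast factors Sp7, Dlx5 and Cbfb and the 5 probe sets of Mef2c were bright in both lines and less than 2-fold apart. The progenitor factors Msx1 and Msx2, the commitment factor Dlx3 and the osteocyte product Sost were dim. The floor of an array is its median signal, 21.06 for Dunn and 18.96 for LM8, and a probe set counts as measured where its signal exceeds the floor on 1 or both arrays. Signals under the floor are raised to it before a ratio is taken, so a ratio that uses a floor is a lower bound and is written "at least". Such a ratio cannot be ranked in size against that of Pth1r. Of the 17 probe sets, 14 were measured, 10 lay above both floors, 4 above 1 floor and 3 below both. The genes with a probe set above both floors were Msx1, Dlx5, Cbfb, Sp7, Pth1r and Mef2c, 6 of the 9.

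**Figure D1:**
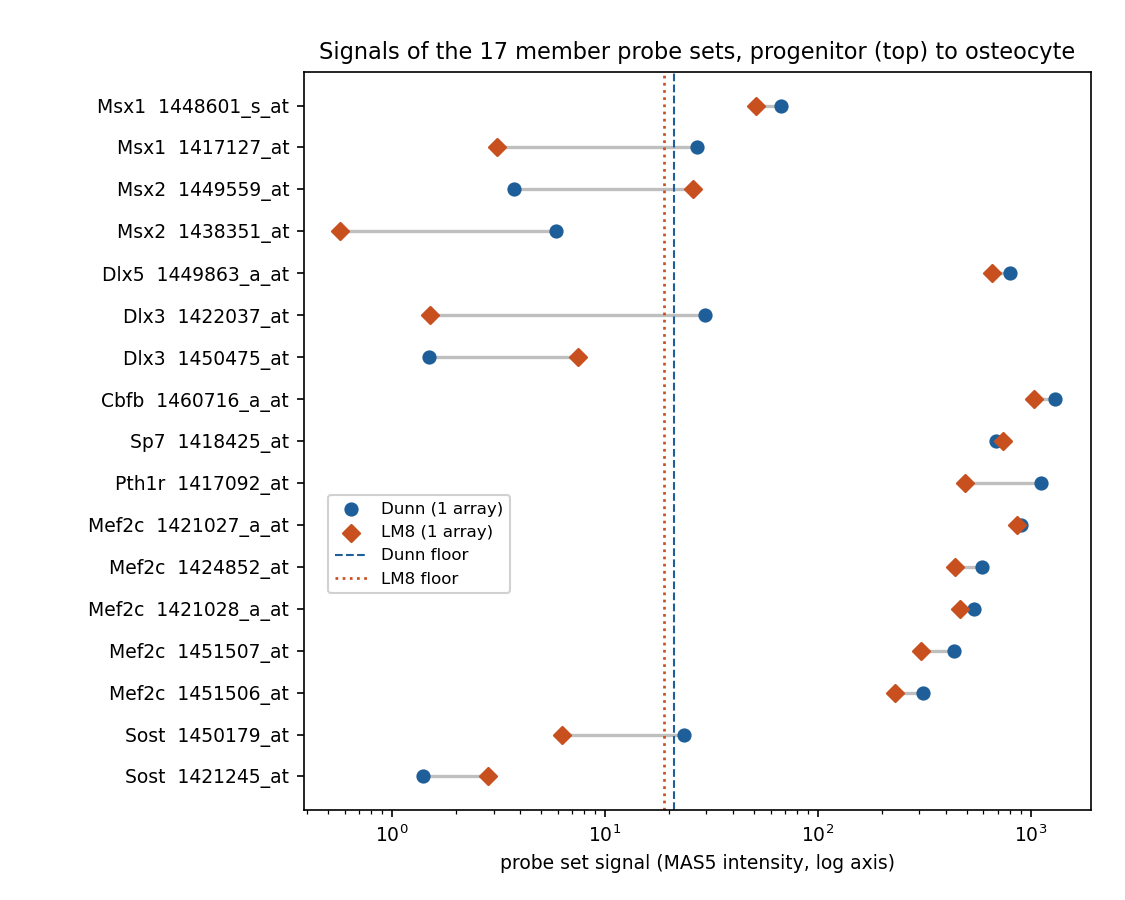
Signal of each of the 17 probe sets on the Dunn array (blue circles) and the LM8 array (orange diamonds), on a log axis, ordered from progenitor to osteocyte genes, with each array's floor as a vertical line. The 2 signals of Pth1r, 1115 and 492, lie farthest apart among probe sets above both floors, and wide gaps elsewhere have an array below its floor.

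The transcription start regions of Pth1r and Mef2c are shown first because these are the members with several starts in the RefSeq promoter table, 3 each, and a probe set signal does not tell which start was used. All 3 windows of Pth1r are given, and the first of Mef2c. Each sequence is the 250 bases before a start, 5' to 3', from the RefSeq table of GRCm38.p6. Capitals mark matches, on either strand, to the 5 motifs searched: the RUNX core ACCACA, the homeodomain core TAATTG, the GC box GGGCGG, the CRE half-site TGACG (the CREB element) and TATAAA.
Pth1r start 1, chr9:110747146-110747395, minus strand: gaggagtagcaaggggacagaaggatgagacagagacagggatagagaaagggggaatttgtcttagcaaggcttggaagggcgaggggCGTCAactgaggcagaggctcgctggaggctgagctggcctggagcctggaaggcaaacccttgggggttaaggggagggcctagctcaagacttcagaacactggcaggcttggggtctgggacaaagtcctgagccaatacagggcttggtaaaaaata
Pth1r start 2, chr9:110743687-110743936, minus strand: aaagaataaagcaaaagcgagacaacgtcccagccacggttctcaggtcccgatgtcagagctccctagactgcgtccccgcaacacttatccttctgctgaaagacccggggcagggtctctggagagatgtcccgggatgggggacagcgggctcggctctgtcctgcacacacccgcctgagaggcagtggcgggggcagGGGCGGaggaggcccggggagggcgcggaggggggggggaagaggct
Pth1r start 3, chr9:110742611-110742860, minus strand: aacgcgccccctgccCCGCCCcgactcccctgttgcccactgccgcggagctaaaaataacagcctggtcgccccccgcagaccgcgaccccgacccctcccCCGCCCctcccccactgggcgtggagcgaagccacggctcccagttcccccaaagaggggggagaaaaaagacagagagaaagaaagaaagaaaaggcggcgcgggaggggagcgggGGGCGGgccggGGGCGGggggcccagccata
Mef2c start 1, chr13:83503784-83504033, plus strand: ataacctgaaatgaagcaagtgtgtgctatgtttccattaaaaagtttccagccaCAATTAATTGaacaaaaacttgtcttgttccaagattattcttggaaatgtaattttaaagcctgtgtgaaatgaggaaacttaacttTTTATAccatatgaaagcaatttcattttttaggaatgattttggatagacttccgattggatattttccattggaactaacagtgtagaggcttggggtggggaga

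The most upstream Pth1r window held a CRE half-site at -161 to -157, counted from the start and on the opposite strand, and no other motif. The second held 1 GC box and the third 4, and their GC content was 65.6% and 70.4%, against 56% in the first and a median of 52.4% over all 32851 promoters. The first Mef2c window, with 33.6% GC, held homeodomain cores on both strands that overlap each other, at -195 to -186, and a TATA match on the opposite strand at -107 to -102. Over all promoters of this length, 7.17% held the homeodomain core, 17.8% the CRE half-site, 32.7% the GC box, 12.4% the TATA letters and 14.05% the RUNX core. The table gave 10 promoters for 6 of the 9 genes (Msx1, Msx2, Cbfb, Pth1r, Mef2c and Sost). None of the 10 held the RUNX core letters, and the single Sost window held a CRE half-site at -152 to -148. A match describes letters in a window and is not a bound site.

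Msx1, at the progenitor end, was detected dimly. Its probe set 1448601_s_at, of a type that can match more than 1 transcript, had a signal of 67.0 in Dunn and 51.4 in LM8, both above the floors, a log2 ratio of -0.38. The other, 1417127_at, gave 27.2 in Dunn and 3.11 in LM8, so that LM8 was at its floor and the ratio is at least 1.44-fold lower. Both probe sets of Msx1 had the lower signal in LM8, and for the second the size has no upper limit here.

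Msx2 was near the floor throughout. Probe set 1449559_at gave 3.75 in Dunn and 26.05 in LM8, at least 1.24-fold higher in LM8, and 1438351_at gave 5.91 and 0.567, below both floors. The Msx2 probe sets have no settled direction, since the dimmer one carries no order under the floor.

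Dlx5, a homeobox activator of osteoblast genes, had a signal of 801 in Dunn and 657 in LM8 on its 1 probe set, a log2 ratio of -0.29. Dlx3, its relative, gave 29.4 in Dunn and 1.502 in LM8 on probe set 1422037_at, at least 1.55-fold lower, and 1.49 and 7.46 on 1450475_at, below both floors. Dlx5 was therefore well above the floor in both lines, and Dlx3 exceeded it in Dunn alone, at 1.40 times the floor.

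Cbfb, whose protein stabilises RUNX factors on DNA, stood at 1308 in Dunn and 1034 in LM8, a log2 ratio of -0.34. Sp7, the osterix gene, stood at 687 in Dunn and 743 in LM8, a log2 ratio of 0.11. In the reported scaling, Sp7 was the sole member above both floors whose LM8 signal was the higher. Over the 10 probe sets above both floors, log2 ratios other than that of Pth1r ran from -0.52 to 0.11.

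Pth1r gave a signal of 1115 in Dunn and 492 in LM8, 52.9 and 25.97 times the floors. Its log2 ratio was -1.18, or 2.26-fold lower in LM8, and it was the single member probe set past the 2-fold rule. This is 1 of 14 measured members (7.14%), near the 7.79% of all 25144 measured probe sets that were at least 2-fold lower, and none of the 14 was 2-fold higher, against 5.91% of all. Among the 5840 probe sets with signals over 200 on both arrays, 3.97% were 2-fold lower and 3.34% higher. Of all measured probe sets, 5.17% had a lower log2 ratio than Pth1r. In bulk RNA, fewer cells that express a gene and less RNA per cell cannot be told apart. Pth1r has 1 probe set on the array, so no second one bears on the value. The scatter of ratios among probe sets that share a gene (pooled SD 0.46, median SD 0.30 over 5521 genes) mixes technical and isoform differences and is not replicate error. The log2 ratios of 12 bacterial hybridisation controls had an SD of 0.10, which covers hybridisation and scanning only. With arrays set equal on these controls, which are spiked into the samples at known amounts, the Pth1r ratio was -0.94, short of 2-fold, and in the other scalings it lay between -1.22 and -1.03.

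Mef2c, a MADS-box factor, had 5 probe sets, all above both floors. Probe set 1421027_a_at gave 906 in Dunn and 863 in LM8, a log2 ratio of -0.07. Probe set 1424852_at gave 591 and 440 (-0.43), and 1421028_a_at gave 544 and 467 (-0.22). Each of these was lower in LM8 by less than 2-fold. Probe set 1451507_at gave 438 and 305 (-0.52), and 1451506_at gave 313 and 231 (-0.44). The 5 ratios averaged -0.34 ± 0.19 (SD over 5 probe sets of 1 pair of arrays, which are not replicates). The ratio of Pth1r lay 0.84 below that mean. With the hybridisation controls set equal, 2 of the 5 Mef2c ratios turned above 0 (0.17 and 0.02), and with arrays centred on their medians 1 did (0.08).

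Sost gave 23.6 in Dunn and 6.27 in LM8 on probe set 1450179_at, at least 1.25-fold lower in LM8, with the Dunn signal 1.12 times its floor. Its other probe set, 1421245_at, gave 1.39 and 2.83, below both floors. Of 78 probe sets of olfactory and vomeronasal receptor genes, which most tissues do not express, 10.3% lay above the Dunn floor and 2.56% above the LM8 floor. A floor drawn from those receptors, 25.7 in Dunn, left Sost below it in both lines.

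**Figure D2:**
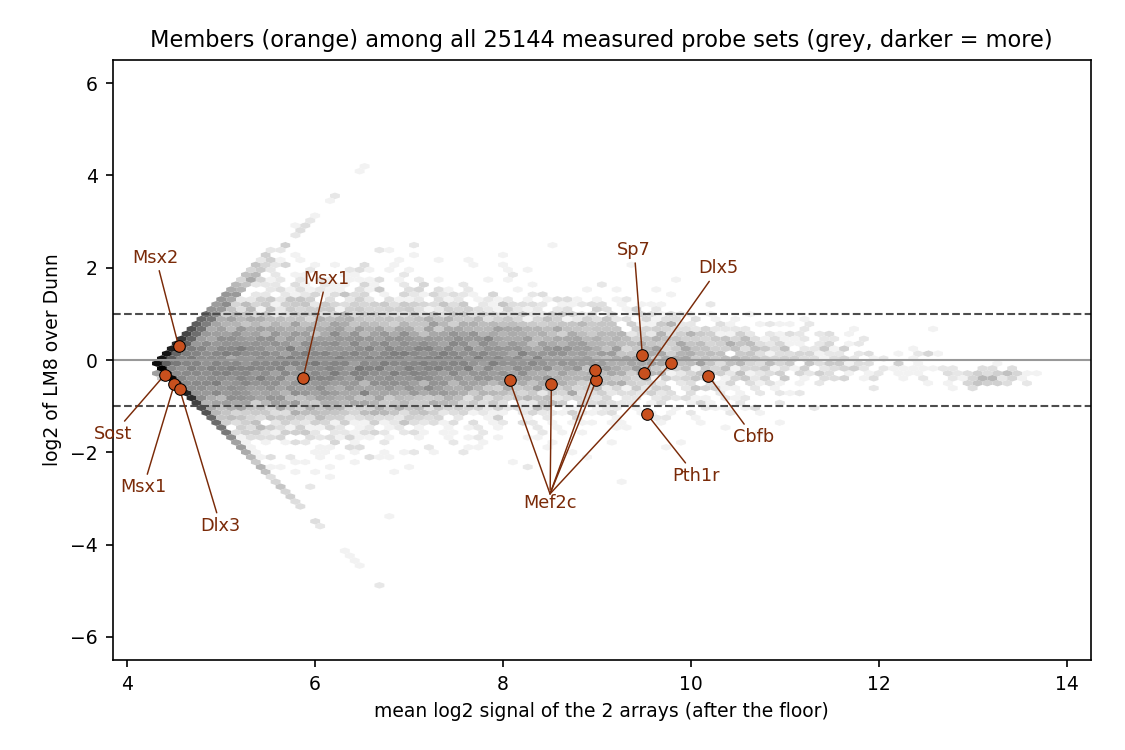
Log2 of LM8 over Dunn against mean log2 signal for all 25144 measured probe sets (grey, darker where more lie) with the 14 measured members in orange and 2-fold marked by dashed lines. Pth1r lies below the lower line, at -1.18, and the members at the left edge have 1 array at its floor.

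In order of stage, the ratios did not run one way. The 14 measured members had a median log2 ratio of -0.36 against -0.07 for all measured probe sets, and 12 of them (85.7%) were below 0, against 54.5% of all. By gene, on the brightest measured probe set, 7 of 9 were below 0, all but Msx2 and Sp7. Of all 11830 measured genes, 55.3% were below 0. For the measured Dlx3 and Sost probe sets and the dimmer one of Msx1, LM8 was at its floor. For such probe sets the filter and the floor fixed a ratio below 0. Among probe sets above both floors, 9 of the 10 members were below 0, against 52.9% of all such probe sets. These shares depend on the scaling. Setting the hybridisation controls equal moved the median of all measured probe sets from -0.07 to 0.18 and that of the members to -0.12, and centring arrays on their medians moved them to 0.08 and -0.21. In each of these scalings the members' median stayed below that of all probe sets, and 5 of the 14 members are Mef2c alone.

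**Figure D3:**
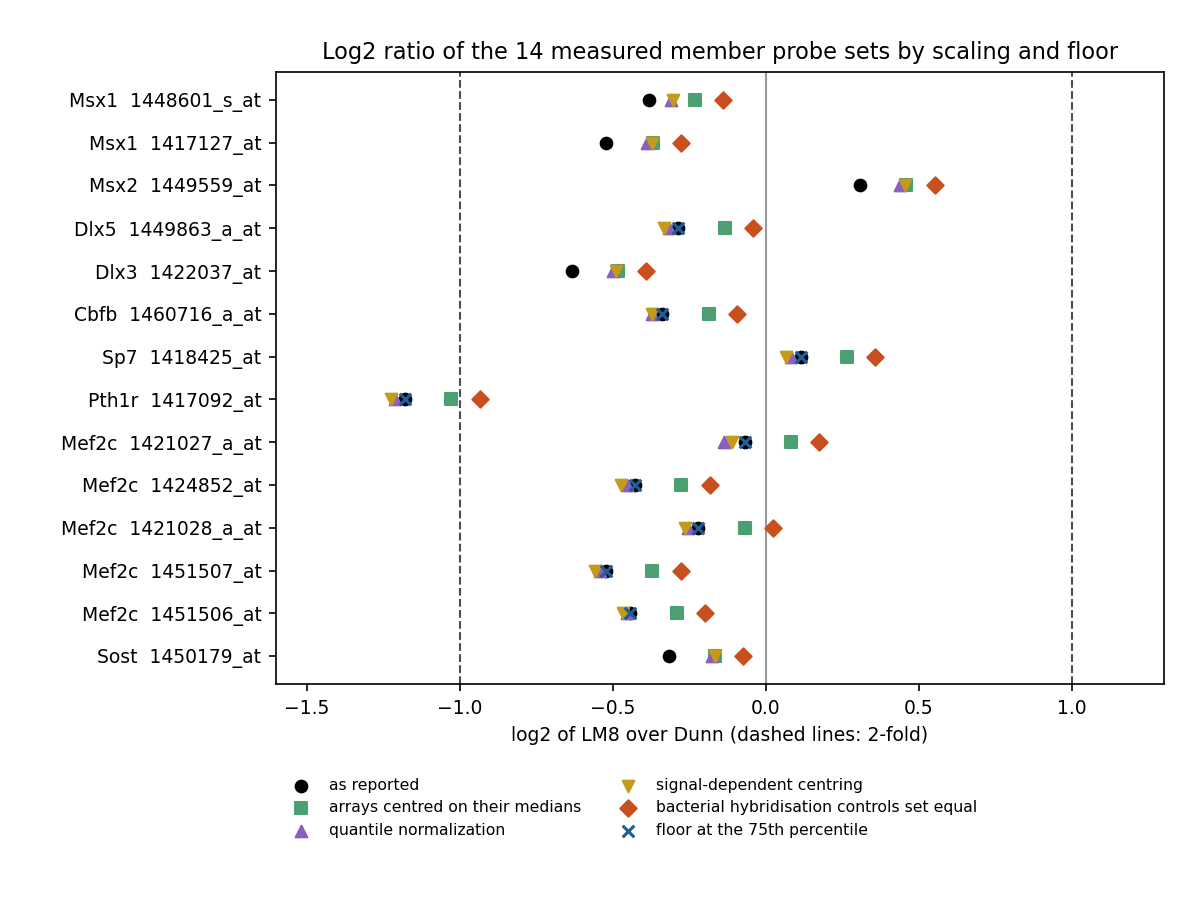
Log2 of LM8 over Dunn for the 14 measured member probe sets as reported (black) and under 4 other scalings and a higher floor. Pth1r passes the 2-fold line (dashed) except with the bacterial controls set equal (-0.94), and probe sets dimmer than the 75th percentile have no point for that floor.

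The arrays were checked against markers of the bone lineage and of other cells. Collagen I (Col1a1) gave 2399 in Dunn and 3537 in LM8, alkaline phosphatase (Alpl) 1266 and 1739, and bone sialoprotein (Ibsp) 239 and 96.6. The defining osteocyte genes Dmp1, Mepe, Phex and Fgf23 and the osteoblast gene Ifitm5 were below both floors, and Bglap was not analysed here. The cartilage collagen Col2a1 was bright, at 1958 and 1345, while Acan, Comp, Matn1 and Col10a1 were below both floors. Of 20 other-cell markers measured in 7 lists, 5 were at least 2-fold lower in LM8 (Hapln1, Vwf, Csf1r, Lyz2 and Pparg) and 1, Tubb3, was higher. Over all 11830 measured genes, 8.84% were lower and 6.51% higher. Hapln1 and Lyz2 were below the floor in LM8 and Tubb3 in Dunn. The 3 measured probe sets of Csf1r disagreed, with log2 ratios from -1.49 to 0.48. Summed over measured markers, the signal was 233 in Dunn and 94.9 in LM8 for 5 of 6 macrophage markers and 350 and 42.05 for 2 of 4 adipocyte markers. Pparg gave 326 of the Dunn sum and was below its floor in LM8. Skeletal muscle (93.0 and 74.8, 3 of 7), endothelial (180 and 95.3, 2 of 5), B cell (14.8 and 28.5, 1 of 4), neuron (62.02 and 106, 3 of 5) and chondrocyte markers (2135 and 1450, 4 of 8) made up the others. Among markers of other cells that use Mef2c, the muscle genes Myog, Myf5, Acta1 and Myh3, the B cell genes Cd79a, Cd79b and Ms4a1 and the neuron genes Snap25 and Map2 were below both floors. In the same lists the muscle gene Des (59.1 and 34.8) and the neuron genes Syp (27.1 and 38.7) and Rbfox3 (22.2 and 25.6) were above both, and Myod1, Ckm, Pax5 and Tubb3 above 1. The part of any of these in the Pth1r or Mef2c values was not tested. The 3' to 5' signal ratio was 0.708 in Dunn and 0.789 in LM8 for Gapdh, and 1.26 and 1.16 for beta-actin.

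Around the members, 9 lists of related genes were described, each gene by its brightest measured probe set. Of the 76 that were measured, 9 (11.8%) exceeded 2-fold toward LM8, 8 (10.5%) toward Dunn and 59 neither, against 6.51% and 8.84% of all 11830 measured genes. Their median of -0.20 compares with -0.08 for all genes. The split was 14 higher and 5 lower with the hybridisation controls set equal, and 10 and 5 with arrays centred on their medians.

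Relatives of the members in the homeobox, RUNX, MEF2 and SP families mostly did not pass the 2-fold rule, with 1 of 10 higher, none lower and 9 between (median -0.02). The higher one was Dlx4, with 11.98 in Dunn and 87.3 in LM8, at least 4.15-fold. Dlx6, the neighbour of Dlx5, gave 112 and 56.3, a log2 ratio of -0.99, just short of 2-fold. Sp3 gave 365 and 655 (0.84). Of the RUNX genes that Cbfb can partner, Runx3 gave 287 and 264, and Runx1 was near the floor (19.5 and 27.8). The 2 measured probe sets of Runx1 disagreed in direction (-0.63 and 0.40), and Runx2 was not analysed here.

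Other regulators of progenitors and osteoblasts had 2 of 12 higher, 1 lower and 9 between (median -0.31). The mesenchymal homeobox gene Prrx2 gave 6.82 in Dunn and 810 in LM8, at least 38.5-fold higher, on a single probe set, and Twist1, which restrains osteoblast maturation, gave 34.95 and 80.6, 2.31-fold higher. Twist1 was below a 75th percentile floor in both lines (95.6 in Dunn, 91.7 in LM8). With that floor, and with the array median as a pseudocount, 1 gene of the list was higher. The vitamin D receptor gene Vdr was 2.11-fold lower, from 171 to 81.1. This call, the only lower one of the list, was lost with arrays centred on their medians, with the hybridisation controls set equal and with the 75th percentile floor (0 lower in each).

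Genes for PTH ligands and for signalling components inside the cell did not follow Pth1r as a block. Of 17 measured genes for ligands, G proteins, adenylyl cyclases, protein kinase A and CREB, 3 were higher, none lower and 14 between (median 0.11). The higher ones were the regulatory kinase subunit Prkar2b (15.04 and 79.5, at least 3.78-fold) and the cyclases Adcy7 (15.5 and 49.5, at least 2.35-fold) and Adcy3 (28.4 and 59.6, 2.10-fold), all dim in Dunn. The 3 measured probe sets of Adcy3 ran from 0.04 to 1.07, and the list had 2 genes higher with the mean over probe sets, and 2 higher and 1 lower with their median. Gnas, which encodes the stimulatory G protein that Pth1r couples to, gave 4951 and 4018, a log2 ratio of -0.30. The ligand gene Pth and the receptor gene Pth2r were below both floors. Pthlh, the gene for PTH-related protein, was not analysed here.

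Genes for receptor traffic and signal decay had 1 of 8 higher, 1 lower and 6 between (median -0.33). Arrb1, an arrestin that takes receptors off the membrane, gave 30.0 and 70.3, 2.34-fold higher. Ramp1, a receptor partner protein, gave 64.3 and 17.1, at least 3.39-fold lower by the brighter of its probe sets, while the other gave a log2 ratio of -0.03. Pde4d, which breaks down cyclic AMP, gave 71.8 and 43.4 (-0.73). None of the 5 measured SIK and class IIa HDAC genes, through which PTH acts on MEF2 factors, was 2-fold apart (median -0.28), the widest being Hdac7 (0.83), Sik3 (-0.57) and Hdac4 (-0.48). The 3 measured probe sets of Sik3 disagreed, from -0.57 to 0.68. With the hybridisation controls set equal, 1 gene of this list was 2-fold higher.

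Genes known to be induced by PTH in osteoblasts were lower in LM8 in 5 of 10 measured cases (50%), with none higher and 5 between, and a median of -0.68. The background for genes was 8.84% lower. The list was drawn up when the lower values of the collagenase gene Mmp13 and of Ptgs2 were already known, so its direction is not independent evidence; without these, 3 of 8 were lower, none higher, and the median was -0.35. Mmp13 gave 1240 in Dunn and 56.5 in LM8, 21.97-fold lower. The G protein regulator Rgs2 gave 54.7 and 18.9, at least 2.88-fold lower, and the prostaglandin synthase gene Ptgs2 46.8 and 2.02, at least 2.47-fold. The other two, named after their values were seen, were Fos (67.5 and 31.3, 2.16-fold) and Nr4a2 (81.8 and 40.9, 2.00-fold). Probe sets disagreed for Nr4a2 (5, the highest log2 ratio 0.10) and Rgs2 (3, from -1.53 to -0.34), and with the mean or median over probe sets the list had 3 lower genes. Apart from Mmp13 these signals were dim, and with a floor at the 75th percentile 2 genes were measured and Mmp13 alone was called. Fos, Nr4a2, Rgs2 and Ptgs2 answer to many signals, and with 1 array per line, culture state and line cannot be told apart. The list held 3 lower genes and 1 higher with arrays centred on their medians, and 3 lower and 2 higher with the hybridisation controls set equal. With signal-dependent centring it held 4 lower and 1 higher.

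Osteoblast matrix and mineral genes went both ways. Whether the members act on the genes of this and the following lists was not tested. Of 7 measured osteoblast matrix and mineral genes, 2 were higher, 1 lower and 4 between (median 0.46): osteomodulin (Omd) gave 164 and 823, 5.01-fold higher, the sphingomyelinase gene Smpd3 163 and 384, 2.35-fold higher, and Ibsp was 2.48-fold lower. At the osteocyte end, 4 of 9 listed genes were measured and none passed the 2-fold rule. Irx5 gave 183 and 329 (0.85), Dkk1 27.3 and 16.1, and Capg 12.2 and 23.9. Gja1 was the brightest, at 1804 and 1680 (-0.10), and its 6 measured probe sets disagreed, from -0.88 to 1.53. The 3 measured sclerostin receptors had log2 ratios below 0, as had 55.3% of all measured genes. Their median of -0.41 became -0.17 with the hybridisation controls set equal and -0.26 with arrays centred on their medians. Lrp4 was at -0.12, near the median of -0.08 over all measured genes, and Lrp6 at -0.41. Lrp5, with 31.2 in Dunn and LM8 below its floor, was at least 1.65-fold lower.

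**Figure D4:**
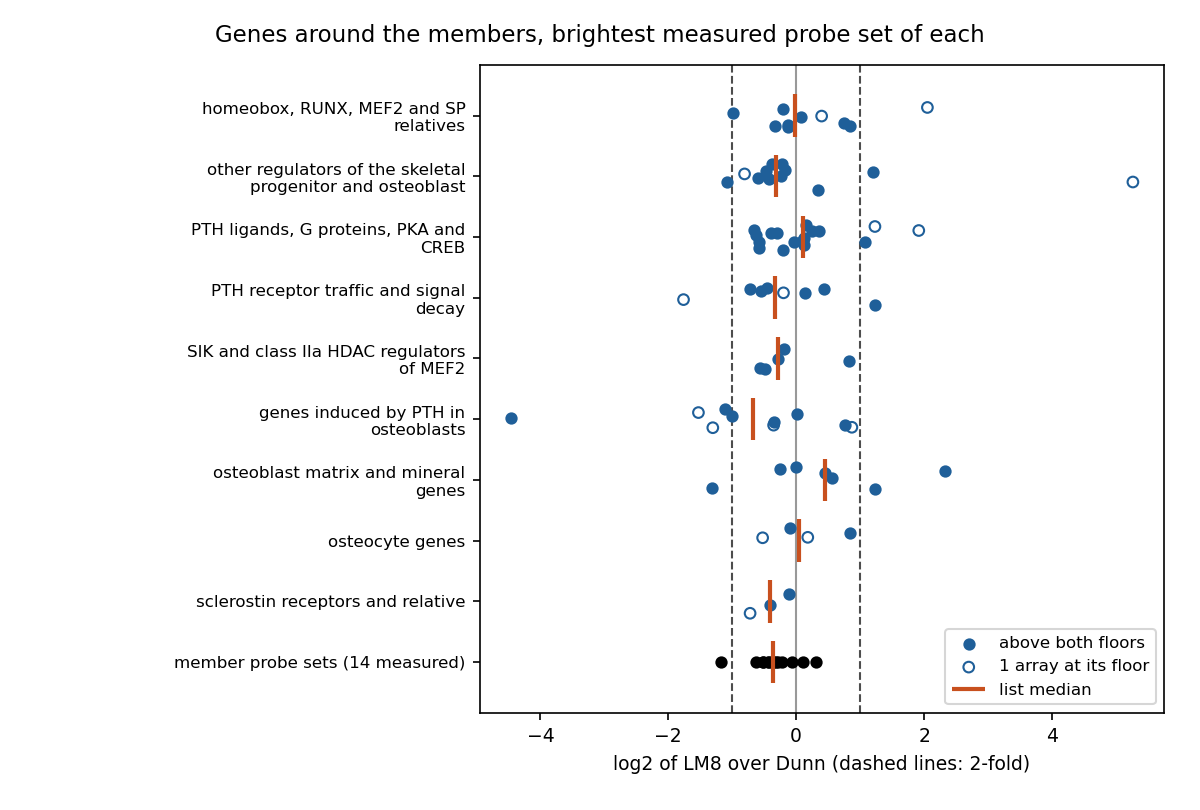
Log2 of LM8 over Dunn of each measured gene in the 9 lists (filled, both arrays above their floors; open, 1 array at its floor), with the list median as an orange bar, and the 14 member probe sets in black at the bottom. Mmp13 lies farthest left (-4.46) and Prrx2 farthest right (at least 38.5-fold), and the members' median is -0.36.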

How the data were processed

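Total RNA of each line (10 µg) was hybridised to 1 Affymetrix array with 45101 probe sets. The deposited values were linear intensities; the submitters' processing notes name MAS5 for the authors' summary of each probe set. Its settings are not given in the sources used here, and detection calls did not enter. The 64 control probe sets were set aside, and both arrays were brought to a common 2% trimmed mean, which multiplied signals by 1.00. Gene symbols came from the platform annotation, updated by gene identifier (99.4% matched) against GRCm38.p6.

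Calls were at least 2-fold after the floor. Named were all members, the 3 list genes with the largest log2 ratio in size, a few genes chosen in advance and other-cell markers past 2-fold. Some further genes and markers were named outside this rule. Members, lists and rules were chosen with earlier results of these data known. Alternatives covered scaling, floor, pseudocount, fold rule, probe set type and gene summary. The steps were tested on simulated arrays with changes well over 2-fold in bright probe sets. Changes near 2-fold, and changes in dim probe sets, were not simulated. Computation used Python 3.11.15 with pandas 2.3.3, numpy 2.4.6, statsmodels 0.14.6 (lowess) and scipy 1.17.1 (trimmed means).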

Additional observations from a re-analysis of the deposited data

How the results depend on the processing

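The count of members at least 2-fold apart (1 lower, none higher) held under quantile normalization, signal-dependent centring, arrays centred on their medians, both other floors, without the probe set type that can match several transcripts, and counted by gene. It was 0 lower with the hybridisation controls set equal and 0 lower under a 3-fold rule. With no floor and no filter it was 3 higher and 5 lower of 17, against 16.3% and 20.4% of all probe sets. With the array median as a pseudocount it was 3 lower of 17, against 4.10% of all. The added calls were dim probe sets. The members' median log2 ratio ran from -0.38 to -0.12. For the 9 lists (9 higher, 8 lower), the counts were 14 higher and 5 lower with the hybridisation controls set equal, 5 lower with arrays centred on their medians, 14 and 17 of 96 with no floor, 3 and 2 of 43 with a 75th percentile floor, 4 and 2 under a 3-fold rule, and 5 lower with probe sets averaged. Of all measured probe sets, 10.2% were higher and 4.46% lower with the hybridisation controls set equal, and 8.36% and 5.54% with arrays centred on their medians. These shares were 4.69% and 5.09% with the 75th percentile floor, and 1.86% and 2.27% under the 3-fold rule. Of all measured probe sets called, 43.1% were higher in LM8 as reported, 60.1% with arrays centred on their medians and 69.6% with the hybridisation controls set equal. The single array per line limits every value, and signals near the floor carry no order.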

Other observations

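Neighbouring genes of the members were looked up by position (the nearest protein-coding gene on each side in GRCm38.p6), after the members' values were seen. Of 18 positions, 14 held a measured gene, of which 1 was at least 2-fold higher in LM8, none lower and 13 between. Over all 11830 measured genes, 6.51% were higher and 8.84% lower. The neighbours Dlx4, Dlx6 and Sp1 also belong to the list of relatives. The higher gene was Dlx4 beside Dlx3, at least 4.15-fold, whereas Dlx3 was at least 1.55-fold lower on 1 probe set and below both floors on its other. Around Pth1r, Ccdc12 gave 366 in Dunn and 435 in LM8, a log2 ratio of 0.25, and Myl3 gave 35.1 and 4.96, at least 1.85-fold lower. Around Mef2c, Cetn3 gave 676 and 917 (0.44) and Tmem161b 57.0 and 113 (0.99), both higher in LM8 where the 5 Mef2c probe sets were lower. Dusp3, beside Sost, gave 47.4 and 48.4.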
